A study of Homo sapiens with 6 samples.

Results

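The aldo-keto reductases are a family of enzymes that use NADPH to reduce aldehydes and ketones. The members described here are 10 human genes, AKR1A1, AKR1B1, AKR1B10, AKR1C1, AKR1C2, AKR1C3, AKR1C4, AKR1D1, AKR7A2 and AKR7A3, out of 20046 genes with a named probe on the arrays. They were chosen by family membership after their DMSO levels and their sorafenib differences in both sets of values had been seen. Those values are therefore given as a description, and no p-value is printed for a member. A threshold passed or an interval given for a member below describes its arrays and is not read as a test. Of the 10 genes, 8 had a probe in the platform annotation, with 16 probes in all. AKR1A1, the general aldehyde reductase, and AKR1B1, the aldose reductase of the polyol pathway, had no named probe and were not analysed here.

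By the labels, RNA came from Huh7, an established line of human hepatocellular carcinoma cells, and each of 6 samples was hybridised to an Illumina expression beadchip. In 3 samples the cells had received sorafenib for 24 h, an oral kinase inhibitor that acts on RAF and on receptors of VEGF and PDGF, at a concentration that the labels write as 3 mM and whose unit was not settled. The 3 other samples had DMSO, the solvent, for the same time. Nothing in the labels says whether the replicates were separate cultures, so the spread between arrays may be technical.

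Each sample carried 2 sets of values, and its own 2 columns matched no better than columns of different samples, so they were not treated as 1 array. The first set holds probe signals that were not normalized and is called the signal arrays. The second is a table of normalized log2 values and is called the value-table arrays. The Spearman correlation across probes between a sample's own 2 columns was 0.848 to 0.863, no closer than that between different samples of the 2 sets (0.846 to 0.863), while arrays within a set correlated at 0.923 to 0.942. Which set came from Huh7 was not settled. Every result below is given for each set on its own, and levels placed side by side across sets were normalized separately and carry no test. In both sets, all 14 hepatocyte marker genes with a named probe lay above background, and 5 of 7 stromal, 4 of 5 endothelial and 3 of 5 blood cell markers did not, among them COL1A1, VWF, CDH5 and PTPRC. Those that did were ACTA2, PDGFRB and LYVE1 on the signal arrays, COL1A2, LUM and PECAM1 on the value-table arrays, and CD14 and CD68 in both. Of 5 biliary markers, EPCAM, KRT19, SOX9 and SPP1 lay above background in both sets and KRT7 in neither. Of 4 fetal liver and hepatoma genes, AFP and GPC3 were above background in both sets. H19 was so on the value-table arrays alone and DLK1 on the signal arrays alone.

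In liver the AKR1C enzymes are hydroxysteroid dehydrogenases that inactivate or interconvert steroid hormones and reduce ketones of drugs and prostaglandins. AKR1D1 reduces the double bond of the steroid A ring on the way to bile acids. AKR1B10 reduces retinal and reactive lipid aldehydes and is known as a gene that many liver cancers switch on, whereas AKR7A2 and AKR7A3 reduce the dialdehyde of aflatoxin. Several members are also known targets of the oxidant sensor NRF2.

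The AKR1C genes lie next to each other on chromosome 10 and are close copies, which bears on what a probe can tell apart. The upstream sequences of this cluster are shown because its members differed most in level between the sets and resemble each other closely. Each line gives the 150 bases before the annotated start, 5′ to 3′, from RefSeq (GRCh38.p14). Capitals mark matches to CCAAT, the CCAAT box, and to GTTAAC, a part of the site of the hepatocyte factor HNF1, searched on both strands.
AKR1C1, chr10:4963265-4963414, plus strand: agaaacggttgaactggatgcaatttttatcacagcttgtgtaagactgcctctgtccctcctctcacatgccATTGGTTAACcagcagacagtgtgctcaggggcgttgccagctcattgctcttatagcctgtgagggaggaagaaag
AKR1C2, chr10:5003858-5004007, minus strand: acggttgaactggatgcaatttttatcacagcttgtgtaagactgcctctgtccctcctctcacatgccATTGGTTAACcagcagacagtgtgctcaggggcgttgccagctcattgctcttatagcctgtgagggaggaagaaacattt
AKR1C3, chr10:5048631-5048780, plus strand: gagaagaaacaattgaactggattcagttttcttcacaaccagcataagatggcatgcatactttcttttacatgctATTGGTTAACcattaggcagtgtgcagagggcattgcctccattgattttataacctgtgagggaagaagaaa
AKR1C4, chr10:5196687-5196836, plus strand: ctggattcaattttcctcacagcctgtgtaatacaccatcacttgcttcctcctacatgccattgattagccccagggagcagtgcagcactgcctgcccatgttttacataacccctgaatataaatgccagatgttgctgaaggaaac

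The AKR1C1 and AKR1C2 windows were identical at 145 of 154 aligned positions (94.2%), AKR1C1 and AKR1C3 at 72.9%, and AKR1C1 and AKR1C4 at 58%. The windows of AKR1C1, AKR1C2 and AKR1C3 each held 1 CCAAT match, on the reverse strand, that overlapped 1 GTTAAC match, and a further annotated start of AKR1C3 had the same pair. AKR1C4 had neither. Among all 35116 promoter windows of this length, 23.5% held CCAAT and 1.32% held GTTAAC; both motifs were picked after the sequences were seen. The core of the antioxidant response element through which NRF2 acts, TGACNNNGC, was in none of these windows, and in 7.29% of all. Among the other members with an entry, AKR7A2 held that core. No AKR1B10 window was in the table used.

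A probe of the signal arrays was kept where 3 or more of the 6 arrays gave it a detection p under 0.01. In the value table it was kept where 3 or more columns lay over a log2 value of 7.40, the mean level at which signals with their background left in reached that detection p. AKR1C2 had 6 probes, of which 2 were kept on the signal arrays and 1 on the value-table arrays. The single probe of AKR1C1, the enzyme that inactivates progesterone, was above background on none of the arrays of either set. Its level on the signal arrays was 4.63 to 4.77 with sorafenib and 4.50 to 4.72 with DMSO, and on the value-table arrays 6.61 to 6.62 with sorafenib and 6.46 to 6.73 with DMSO (log2, 3 samples each). In all, 9 of the 16 probes were kept in each set, for 7 genes in each.

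The clearest pattern across the sets was the level of the AKR1C genes. For this the signals were quantile-normalized with their background left in, so that both scales keep their floor. DMSO samples had an AKR1C3 level of 14.88 ± 0.047 on the signal arrays and 8.14 ± 0.055 on the value-table arrays (log2, SD, n = 3 each; probe ILMN_1713124). AKR1C3 makes testosterone from its precursor and forms prostaglandin F. The difference of 6.74 log2 units is 107-fold.

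AKR1C2, which inactivates dihydrotestosterone, showed the same order at its brightest probe, ILMN_2412336. Its DMSO level was 15.70 ± 0.061 on the signal arrays and 10.89 ± 0.13 on the value-table arrays, 4.82 log2 units or 28.2-fold apart. The linear signal of this probe was 51005 to 55328 in DMSO samples, close to the highest of any probe on these arrays (58694 to 61954), so the 28.2-fold may be a lower bound; whether the scanner's ceiling limited it was not tested. AKR1C4, a hydroxysteroid dehydrogenase of bile acid synthesis that is largely limited to liver, stood at 13.88 ± 0.14 and 10.82 ± 0.088 by probe ILMN_1687757, 3.06 log2 units or 8.32-fold apart. For each of these 3 probes all signal arrays lay above all value-table arrays. The second AKR1C4 probe, ILMN_1668880, had the opposite order, at 6.78 ± 0.057 on the signal arrays, where it was not detected, and 7.74 ± 0.067 on the value-table arrays.

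The remaining measured members lay closer together at their brightest probes. AKR1B10 was lower on the signal arrays, at 14.36 ± 0.17 against 15.20 ± 0.017 on the value-table arrays, 1.79-fold apart. AKR1D1 had 14.04 ± 0.31 and 13.64 ± 0.39 by its brighter probe, and its arrays overlapped between the sets. AKR7A2 had 12.63 ± 0.017 on the signal arrays and 12.19 ± 0.027 on the value-table arrays, and AKR7A3 10.32 ± 0.0037 and 9.88 ± 0.080. Of 19021 probes kept in either set, 2.11% lay over 3 log2 units apart between the sets in DMSO samples, and the brightest probes of 3 of the 7 measured members did. When the signals were given the value table's own distribution, AKR1C4 fell just short of that mark at 2.97, and 2 of 7 passed. Without DMSO replicate 3, 2 of 7 passed as well. The second kept probes of AKR1C2, AKR1C4 and AKR1D1, at 1.62, -0.96 and 1.12, are not in these counts. Since the members were chosen with these levels in view, nothing is read from the shares.

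**Figure D1:**
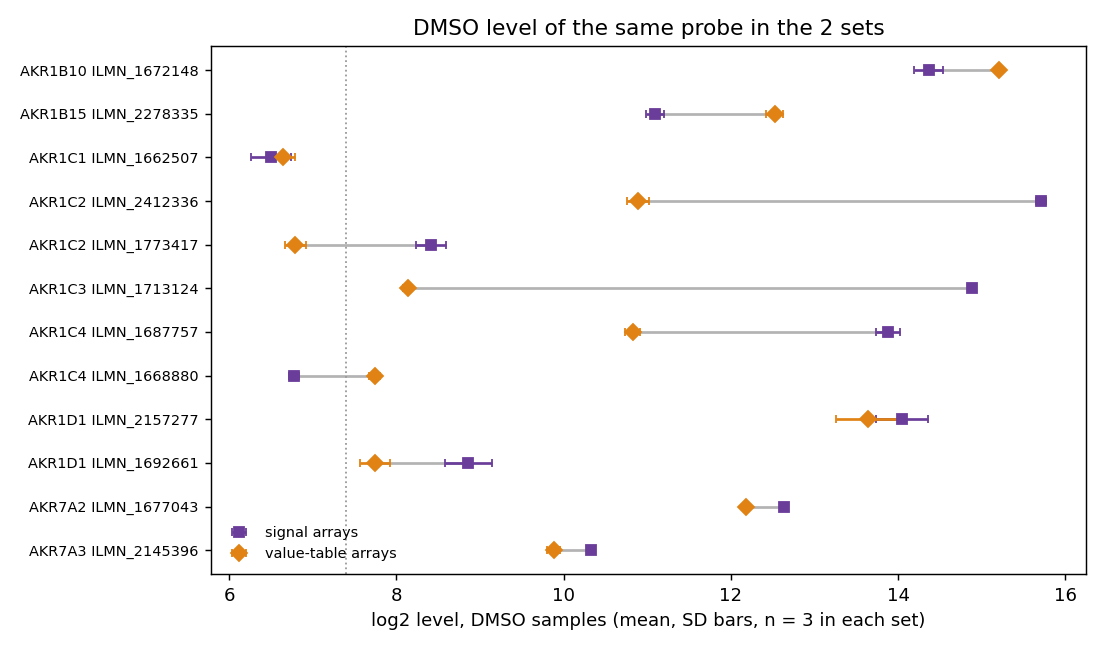
DMSO level of each kept aldo-keto reductase probe, and of the AKR1C1 probe, on the signal arrays (squares, background left in) and the value-table arrays (diamonds), as log2 means with SD bars over 3 samples; the dotted line marks 7.40, the filter level of the value table. AKR1B15, a close copy of AKR1B10 that is no member, is drawn too. The brightest probes of AKR1C3, AKR1C2 and AKR1C4 are separated by 6.74, 4.82 and 3.06 log2 units, while the second AKR1C2 probe is separated by 1.62 and the second AKR1C4 probe by -0.96, with the signal arrays lower. For AKR1D1, AKR7A2 and AKR7A3 the brightest probes lie under 0.5 apart.

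Genes next to the 2 clusters, added after the data were seen, were set beside them. Near the AKR1C cluster, the same signal minus value-table difference in DMSO samples was 1.14 for KLF6, 0.23 for PITRM1, 0.47 for TUBAL3, 0.14 for NET1 and 0.60 for ASB13, all kept in both sets. PFKP, further out on the KLF6 side, was above background on the signal arrays alone, at 11.78 on the signal arrays and 7.20 on the value-table arrays. Beside the AKR1B genes on chromosome 7, 8 neighbours were kept in both sets, and all were lower on the signal arrays. Their difference was -0.098 for SLC35B4 and -0.51 for BPGM, the nearest on either side, -0.073 for CHCHD3, the narrowest, and -1.71 for TMEM140, the widest. PODXL, kept on the signal arrays alone, went the other way, at 0.30. No share of all probes lower on the signal arrays is given beside this count, so nothing is read from it.

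The sorafenib comparison asks how the drug changed each gene within a set. On the signal arrays, levels are normalized log2 values with the background removed. Here sorafenib samples were lower for AKR1B10 and higher for AKR1C3, AKR1C4 and AKR7A2. A gene was called when its brightest kept probe had a Benjamini-Hochberg adjusted p under 0.05 in limma's fit over all kept probes. By that mark 4 of 7 members were called, against 31.0% of all 10523 genes tested; 3 were higher (16.8% of all genes) and 1 was lower (14.2%). Since the members were chosen with this contrast in view, nothing is read from these shares. The median log2 difference was 0.19 over the 7 members and -0.0010 over all genes. In bulk RNA, fewer cells that express a gene and less of its RNA per cell cannot be told apart. The summed stromal marker signal, on a linear scale, was 11864 to 14335 in sorafenib samples and 8620 to 11060 in DMSO samples, with 2 of 7 markers above background and COL1A1 and COL3A1 not; its part in these results was not tested.

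AKR1B10 had levels of 13.34, 13.33 and 13.37 in the sorafenib samples of the signal arrays, against 14.21, 14.32 and 14.54 in the DMSO samples. The sorafenib samples lay close together and below all DMSO samples. The means were 13.34 ± 0.022 with sorafenib and 14.36 ± 0.17 with DMSO (SD, n = 3 each), a log2 difference of -1.01 (SE 0.080, 95% confidence interval -1.19 to -0.83), or 2.02-fold lower. It was called lower in each of the 14 other settings tried. These include the value table as the source, which was treated as separate arrays and not as another processing of these.

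AKR1C3 moved the other way on these arrays, with 15.25, 15.24 and 15.29 in sorafenib samples against 14.88, 14.92 and 14.83 in DMSO samples. The groups did not overlap, and the log2 difference was 0.38 (SE 0.050, interval 0.27 to 0.49), or 1.30-fold higher. AKR1C4 had 14.41, 14.46 and 14.67 with sorafenib against 13.84, 13.74 and 14.03 with DMSO. Its groups did not overlap either, and it was 1.56-fold higher (log2 difference 0.64, SE 0.088, interval 0.45 to 0.84).

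The probes of AKR1C2 disagreed. The brightest, ILMN_2412336, had 15.75, 15.84 and 15.71 in sorafenib samples and 15.63, 15.71 and 15.75 in DMSO samples, with a log2 difference of 0.070 (SE 0.055, interval -0.054 to 0.19), not called. Its linear signal was 50152 to 59118 with sorafenib and 51005 to 55328 with DMSO, and whether the scanner's ceiling limited this difference was not tested either. The other kept probe, ILMN_1773417, had 9.14, 9.04 and 9.69 in sorafenib samples against 7.66, 7.88 and 8.16 in DMSO samples. There the groups were apart and sorafenib samples were 2.62-fold higher (log2 difference 1.39, SE 0.18, interval 0.98 to 1.80), which was called. Probe ILMN_3237488 was detected on 1 sorafenib array and on no DMSO array, and the remaining 3 probes on none. With the mean of its 2 kept probes AKR1C2 was called higher, by 0.73.

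**Figure D2:**
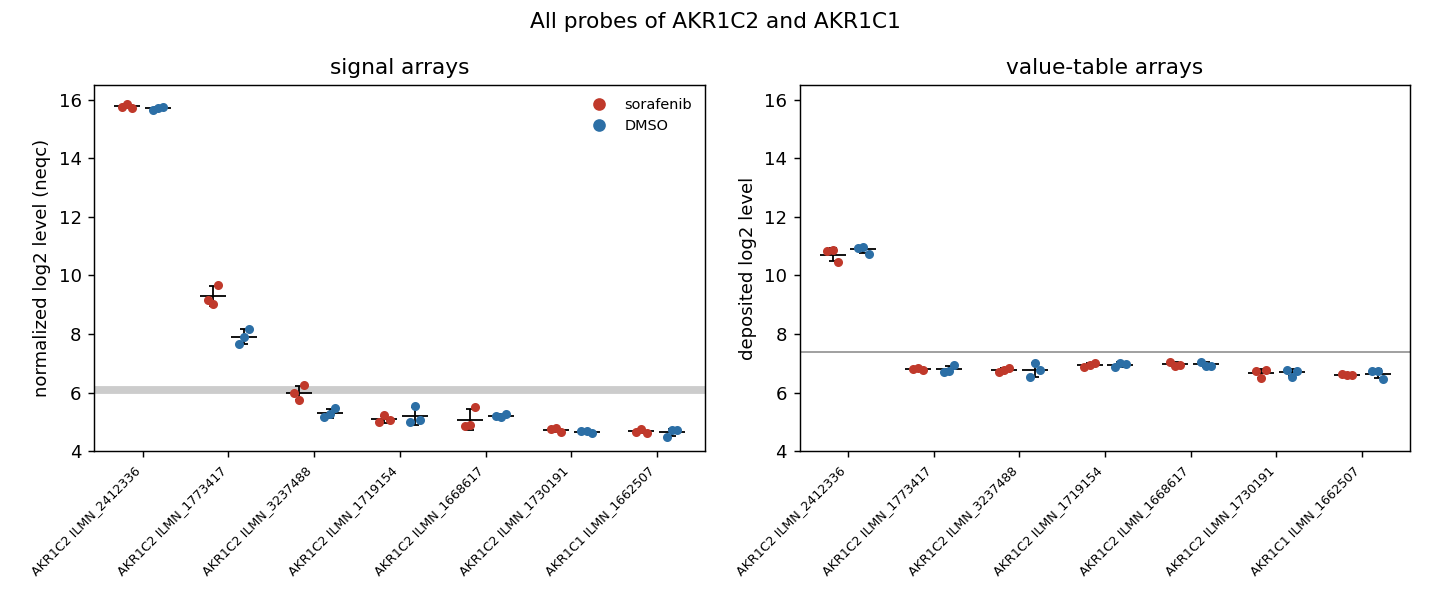
Log2 level of the 6 AKR1C2 probes and the AKR1C1 probe on every signal array (left, normalized with background correction) and every value-table array (right), sorafenib in red and DMSO in blue, with means and SD bars (n = 3 per group); the grey band and line mark the detection level. Probe ILMN_1773417 is apart between groups on the signal arrays and below the detection level in both groups of the value-table arrays, and the AKR1C1 probe is below it everywhere.

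AKR1C1, AKR1C2 and AKR1C3 share long stretches of sequence, the sequences of the probes were not among the sources used here, and how far each probe also binds a neighbour's RNA was not tested. The values are therefore those of probes annotated to these genes, and their assignment to 1 member of the cluster is uncertain.

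AKR1D1 had 2 kept probes with differences of opposite sign on the signal arrays, and neither was called. The brighter one, ILMN_2157277, had 13.76, 13.64 and 13.84 with sorafenib against 14.39, 13.90 and 13.81 with DMSO, so that the groups overlapped (log2 difference -0.28, SE 0.13, interval -0.58 to 0.0071). ILMN_1692661 had 8.98, 8.74 and 8.95 with sorafenib against 8.39, 8.20 and 8.90 with DMSO (0.39, SE 0.17, interval 0.022 to 0.76). With the replicate number as a block, or without DMSO replicate 3, both were called, still in opposite directions, at -0.28 and 0.39 with the block and -0.39 and 0.59 without that array. The difference of the brighter probe was -0.11 without DMSO replicate 1, and that of the dimmer one 0.25 without DMSO replicate 2, neither called.

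The aflatoxin aldehyde reductases differed little. AKR7A2, which also reduces succinic semialdehyde, had 12.75, 12.82 and 12.82 in sorafenib samples against 12.59, 12.62 and 12.62 in DMSO samples, and no sorafenib array overlapped the DMSO arrays. The log2 difference was 0.19 (SE 0.055, interval 0.067 to 0.31), or 1.14-fold. This call was lost under median scaling at 0.16, with no filter, without the intensity trend, and without sorafenib replicate 2 or 3 or any 1 of the DMSO replicates (0.18 to 0.19). AKR7A3 had 10.54, 10.32 and 10.40 with sorafenib against 10.20, 10.20 and 10.21 with DMSO. It was not called (log2 difference 0.22, SE 0.079, interval 0.042 to 0.39), though it was with the replicate block.

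**Figure D3:**
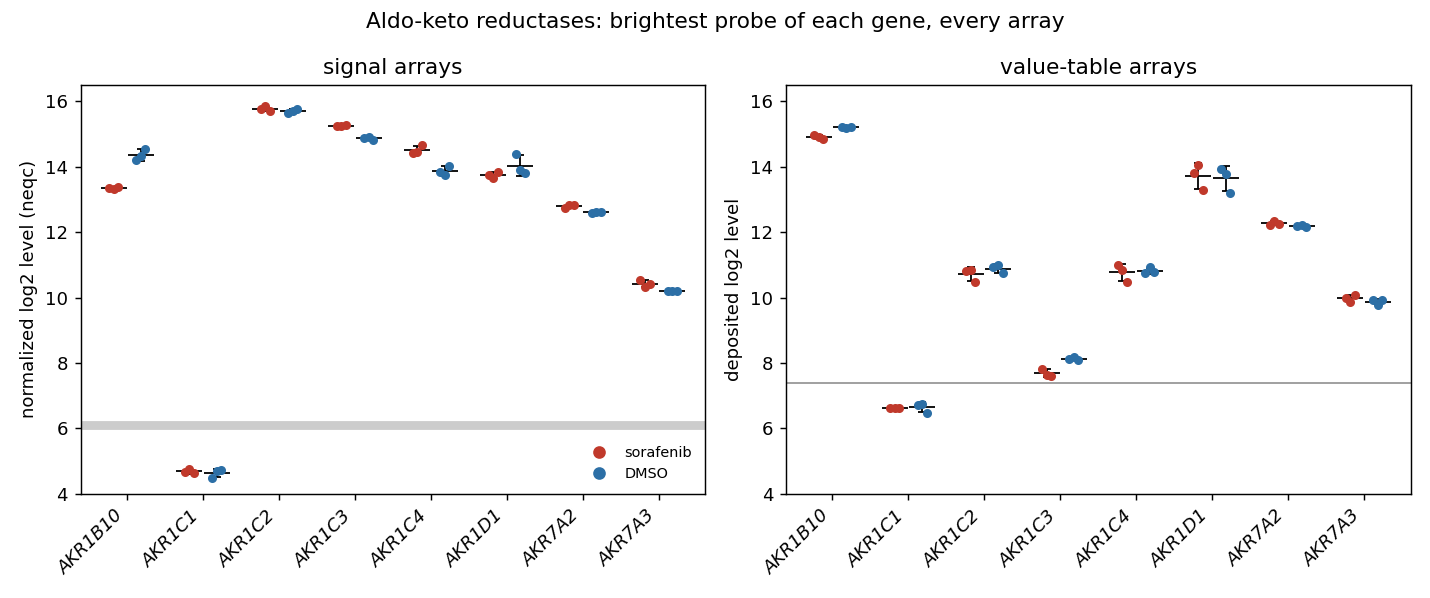
Log2 level of the brightest probe of each of the 8 measured aldo-keto reductases on every array, sorafenib (red, left of each pair) and DMSO (blue), with means and SD bars (n = 3 per group); signal arrays on the left, value-table arrays on the right, and the detection level in grey. AKR1B10 is lower with sorafenib in both sets, and AKR1C3 is higher with sorafenib on the signal arrays and lower on the value-table arrays.

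The value-table arrays asked the same question of the same labels. Here 2 of 7 members were called, against 19.5% of 10597 genes tested; 0 were higher (11.3% of all genes) and 2 were lower (8.17%). At an unadjusted p under 0.05 in limma's fit, 0 were higher and 2 lower. Nothing is read from these shares either. The median log2 difference was -0.048 over the members and 0.0076 over all genes. The summed biliary marker level was 23708 to 24847 in sorafenib samples and 25288 to 28067 in DMSO samples on a linear scale, with 4 of 5 markers above background and KRT7 not, and the endothelial sum was 1088 to 1214 and 1237 to 1506, with 1 of 5 above background and VWF and CDH5 not; their part in these results was not tested.

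AKR1B10 had 14.98, 14.91 and 14.84 in the sorafenib samples of this set against 15.21, 15.18 and 15.21 in the DMSO samples. Again the sorafenib samples were below all DMSO samples. The log2 difference was -0.30 (SE 0.052, interval -0.41 to -0.18), or 1.23-fold lower. Whether this fall and the 2.02-fold fall of the signal arrays differ was not tested.

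AKR1C3 fell as well in this set, with 7.83, 7.65 and 7.59 in sorafenib samples against 8.12, 8.20 and 8.09 in DMSO samples (log2 difference -0.45, SE 0.088, interval -0.65 to -0.25, 1.36-fold lower). These levels stand little above the 7.40 of the filter. The second AKR1C4 probe, ILMN_1668880, had 7.39, 7.23 and 7.22 with sorafenib, below that level on each array, against 7.69, 7.82 and 7.71 with DMSO. It was at least 1.27-fold lower with sorafenib, a bound because the sorafenib samples were dim. This probe passed the filter through its DMSO samples alone, so its difference is given as a value and not as a call, and it was left out where all 6 columns had to lie above the level.

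The other members of this set were not called. AKR1C4 at its brightest probe had 10.99, 10.85 and 10.48 with sorafenib against 10.76, 10.92 and 10.78 with DMSO (log2 difference -0.048, SE 0.12, interval -0.32 to 0.23). AKR1C2 had 10.82, 10.85 and 10.47 against 10.94, 10.98 and 10.74 with DMSO (-0.18, SE 0.11, interval -0.43 to 0.076), and it was called lower with the replicate block at the same difference, whereas without sorafenib replicate 3 the difference was -0.055. For both genes the groups overlapped and sorafenib replicate 3 was the lowest array.

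AKR1D1 spread most between arrays of a group. It had 13.80, 14.05 and 13.29 with sorafenib against 13.94, 13.79 and 13.20 with DMSO (0.069, SE 0.21, interval -0.41 to 0.55), and replicate 3 was the lowest in both groups. Its dimmer probe, ILMN_1692661, had 7.90, 7.72 and 8.20 with sorafenib against 7.58, 7.71 and 7.93 with DMSO (0.20, SE 0.13, interval -0.10 to 0.50), with overlapping groups. AKR7A2 and AKR7A3 had log2 differences of 0.091 (interval -0.042 to 0.22) and 0.098 (-0.091 to 0.29). AKR7A2 samples with sorafenib were above all DMSO samples, at 12.23 to 12.34 against 12.16 to 12.21.

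**Figure D4:**
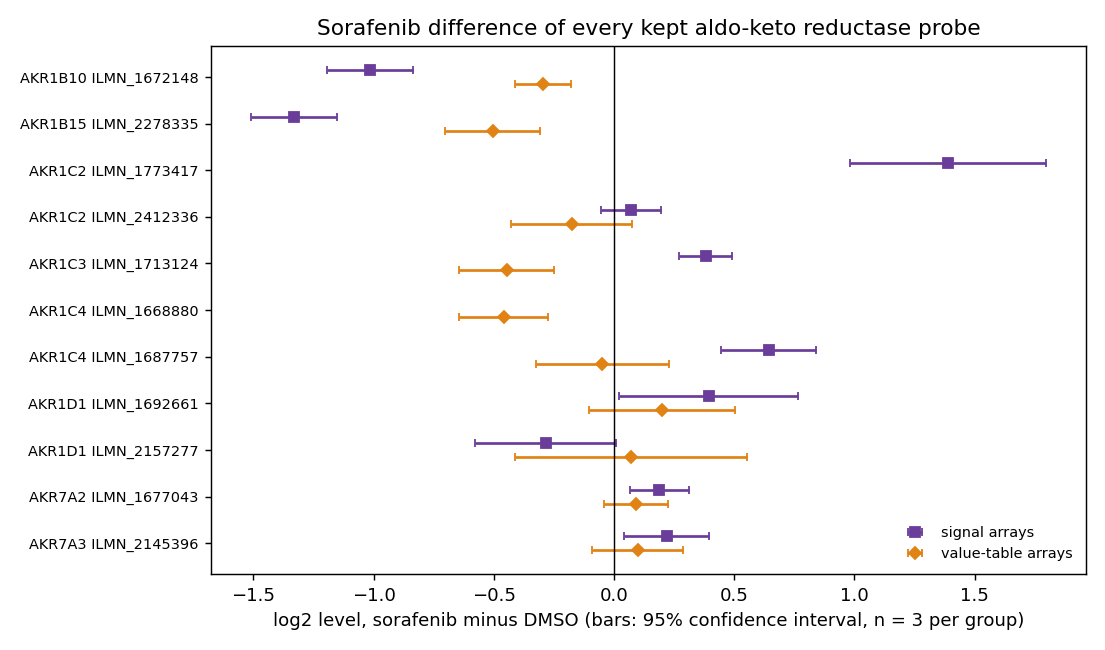
Log2 difference, sorafenib minus DMSO, of every kept probe of the aldo-keto reductases and of AKR1B15, on the signal arrays (squares) and the value-table arrays (diamonds), with 95% confidence intervals (n = 3 per group). AKR1B10 and AKR1B15 lie left of 0 in both sets, AKR1C3 lies on opposite sides, and ILMN_1773417 of AKR1C2 was kept on the signal arrays alone.

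Of 7 further genes of the superfamily with a named probe, AKR1B15 was the 1 with a kept probe; AKR1E2, the pseudogenes AKR1C6P and AKR7A2P1, and the potassium channel subunits KCNAB1, KCNAB2 and KCNAB3 had none in either set. AKR1B15 lies beside AKR1B10 on chromosome 7 and is a close copy of it, and whether its probe also reads AKR1B10 RNA was not tested. It had 9.67, 9.70 and 9.70 in sorafenib samples of the signal arrays against 11.01, 10.91 and 11.15 in DMSO samples, a log2 difference of -1.33 (SE 0.080). In the value table it had 12.14, 12.06 and 11.85 with sorafenib against 12.62, 12.53 and 12.42 with DMSO (-0.51, SE 0.087). Its groups were apart in both sets, and its DMSO level was lower on the signal arrays than on the value-table arrays, by 1.43 log2 units. Like the members, AKR1B15 was picked with its values known, so no p-value is printed for it. Its values are not read as separate evidence on AKR1B10.

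The pathways that the aldo-keto reductases work in were described from lists written with earlier results of these data known. Their counts stand against 31.0% of all genes called on the signal arrays (16.8% higher, 14.2% lower) and 19.5% on the value-table arrays (11.3% higher, 8.17% lower). The aldehyde oxidation list holds genes of the aldehyde dehydrogenase family, only some of which oxidise aldehydes that aldo-keto reductases reduce. It also holds the aldehyde oxidase AOX1, which was not called in either set. Of 16 genes tested on the signal arrays, 9 rose and 1 fell (median log2 difference 0.37), and of 16 on the value-table arrays, 8 rose and 0 fell, with 0 lower also at an unadjusted p under 0.05 in limma (median 0.32), against medians of -0.0010 and 0.0076 over all genes. The 10 calls of the signal arrays were 5 without DMSO replicate 2 and 6 without the intensity trend. ALDH3B1 was 3.35-fold higher with sorafenib on the signal arrays (limma adjusted p = 7.34e-05) and 2.05-fold higher on the value-table arrays (0.000436). ALDH1L1, the cytosolic enzyme of folate metabolism, was 2.35-fold and 1.70-fold higher, and ALDH6A1, of valine breakdown, 2.07-fold and 1.56-fold, a value-table call lost without sorafenib replicate 1 or DMSO replicate 1.

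The carbonyl reduction list holds other carbonyl reductases, alcohol dehydrogenases, and the glyoxalase enzymes GLO1, a lyase, and HAGH, a hydrolase. On the signal arrays 9 of its 20 genes were higher, GLO1 among them, and 2 lower. On the value-table arrays 3 of 20 were higher, HAGH among them, and 1 lower (medians 0.24 and 0.038). Those 4 value-table calls were 2 without sorafenib replicate 2 and 8 with the replicate block. ADH6, an alcohol dehydrogenase, was 2.05-fold higher on the signal arrays (adjusted p = 0.00145 in limma's fit), and DHRS7 was 1.53-fold higher. In the value table neither ADH6 nor DHRS7 was called, at log2 differences of -0.088 and 0.12. DHRS1 was called higher in both sets, 1.38-fold on the signal arrays and 1.43-fold on the value-table arrays. DHRS3, a retinal reductase, was 1.41-fold lower on the value-table arrays and not called on the signal arrays, at a log2 difference of -0.13. The NADPH supply list also holds pentose phosphate enzymes that make no NADPH themselves, PGLS, TALDO1 and TKT. In this list 5 of 7 genes rose on the signal arrays, PGLS and TKT among them. On the value-table arrays 2 of 8 rose, PGLS among them. By limma's adjusted p 0 fell in either set, and at an unadjusted p under 0.05, 1 on the signal arrays and 2 in the value table were lower. The median log2 differences were 0.24 and 0.082. Under median scaling 0 of the 7 were called on the signal arrays, and 3 were called without the intensity trend or without sorafenib replicate 1 or 3 or DMSO replicate 1 or 2. The value-table calls were 5 with the replicate block, 4 without DMSO replicate 2 and 1 without sorafenib replicate 1. NNT, the mitochondrial transhydrogenase, was 1.35-fold higher on the signal arrays and 1.38-fold higher on the value-table arrays.

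Steroid enzymes outside the family had 4 of 13 genes higher and 1 lower on the signal arrays, and 2 of 13 higher and 0 lower on the value-table arrays (1 lower at an unadjusted p under 0.05 in limma). These shares called, 38.5% and 15.4%, lie near those of all genes. The sulfotransferase SULT2A1, which conjugates steroids and bile acids, was 2.37-fold higher on the signal arrays and 1.87-fold higher on the value-table arrays, and HSD17B14, which oxidises estradiol, 2.33-fold and 2.45-fold. In bile acid synthesis, 3 of 6 genes rose and 1 fell on the signal arrays, where the peroxisomal oxidase ACOX2 was 1.44-fold higher and the acyl-CoA synthetase SLC27A2 1.43-fold lower; 2 of 6 rose on the value-table arrays, but 0 did without sorafenib replicate 1 or 3 or DMSO replicate 1 or 2, and 1 was called without sorafenib replicate 2, with no filter or without the trend. ACOX2 was at a log2 difference of -0.21 and SLC27A2 at 0.080 on the value-table arrays, neither called. In the retinoid list 1 of 9 genes rose and 1 fell in each set. On the signal arrays these were RDH5 (1.77-fold higher) and RDH10 (1.18-fold lower), the RDH10 call being lost when any 1 array was left out. In the value table RDH5 and RDH10 were not called, at log2 differences of 0.070 and -0.19. There CYP26A1, which breaks down retinoic acid, was 1.73-fold higher, a call lost without sorafenib replicate 1, and CYP26B1 was 1.48-fold lower. On the signal arrays CYP26B1 was not called, at -0.0093, and CYP26A1 was not tested. In the polyol and fructose list, limma's adjusted p called 0 of 4 genes on the signal arrays and 0 of 3 in the value table; at an unadjusted p under 0.05, 1 was higher on the signal arrays and 1 was lower in the value table. On the signal arrays 1 was called with the replicate block or without DMSO replicate 3, and on the value-table arrays 1 was when a gene's probes were averaged. KHK, the fructose kinase, was at a log2 difference of 0.35 on the signal arrays (limma adjusted p = 0.0754) and was not tested on the value-table arrays.

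Regulators and targets of NRF2 outside the family included 4 of 20 genes that rose and 8 that fell on the signal arrays, and 1 that rose and 5 that fell of 20 on the value-table arrays (medians -0.13 and -0.11). MAFF, a small MAF partner of NRF2, fell in both sets. On the signal arrays it was detected on 2 of 3 sorafenib arrays, and its sorafenib mean of 5.92 lay under the detection level of 5.98 to 6.18, so its size there is uncertain: the log2 difference was -1.88, and -1.01 without background correction. On the value-table arrays it was -0.53. CES1, a liver carboxylesterase, was 1.71-fold higher and the heme oxygenase HMOX1 1.37-fold higher on the signal arrays. On the value-table arrays neither was called, at log2 differences of 0.016 and -0.12. The sulfiredoxin SRXN1 was called lower in both sets, 1.43-fold on the signal arrays and 1.34-fold on the value-table arrays. The value-table call was lost without DMSO replicate 1 or 3. SLC7A11, the cystine transporter, went in opposite directions, 1.70-fold lower with sorafenib on the signal arrays and 1.45-fold higher on the value-table arrays; the first call was lost without DMSO replicate 1 or 2, and its log2 difference of -0.77 was -0.50 without sorafenib replicate 3 and -0.48 without background correction.

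**Figure D5:**
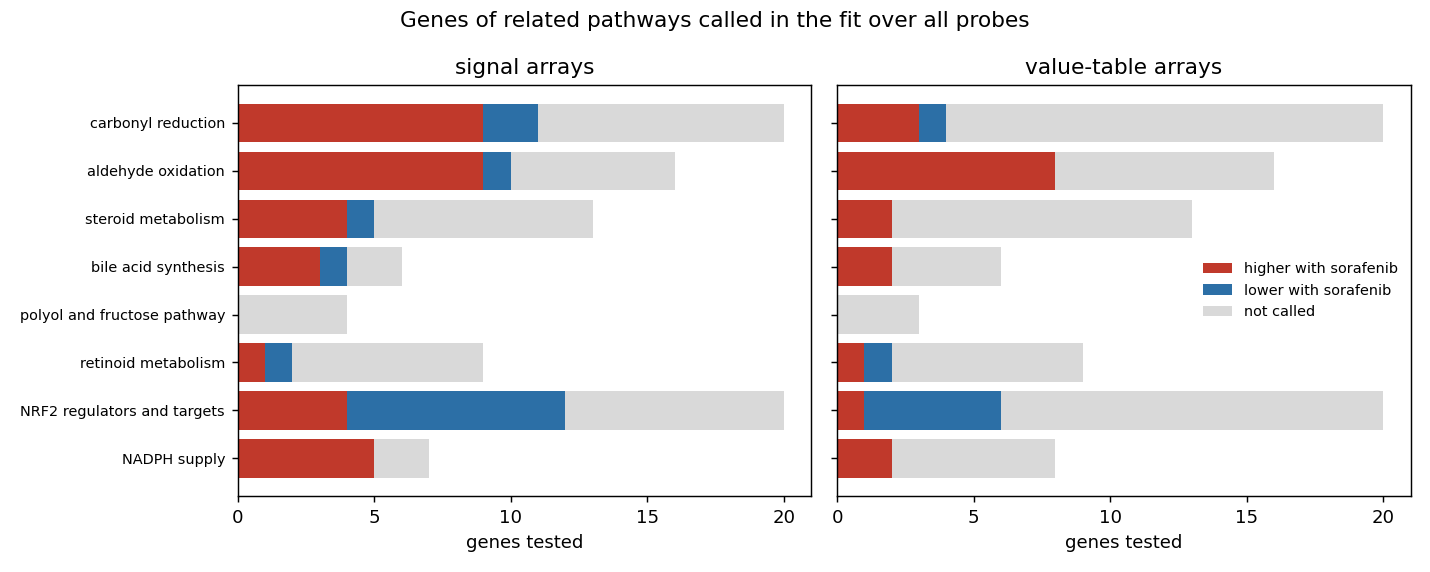
Number of tested genes of 8 related lists that were higher with sorafenib (red), lower (blue) or not called (grey) at a limma adjusted p under 0.05, on the signal arrays (left) and the value-table arrays (right). The aldehyde oxidation list has 9 higher and 1 lower on the signal arrays and 8 higher on the value-table arrays, and the NRF2 list has 8 lower and 5 lower.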

How the data were processed

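Gene expression was measured on Illumina beadchips in 3 sorafenib and 3 DMSO samples, all labelled as 1 cell line and grouped by the sample titles. The authors deposited unnormalized probe signals, an intensity per probe, and beside each a detection p-value, as the file headers state. They also deposited 1 column per sample of values taken as log2 from their range (6.08 to 15.85) and shared median of 7.10; no source used here gives their background correction. RNA was treated with DNase before labelling, per the labels' protocols.

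Signals were background-corrected from the detection p-values and quantile-normalized with neqc of limma 3.58.1 in R 4.3.3 (offset 16). After the detection filter, 17115 of 47323 probes were left, and 17124 probes of the value table passed its filter. The median signal was 120.2 to 144.5, and 16476 to 17476 probes were detected per array. Precision is limited by having 3 arrays in a group. Differences were tested within a set with lmFit and eBayes with the intensity trend, group only, two-sided, and Benjamini-Hochberg adjustment ran over every probe left. Symbols came from the platform annotation, and the brightest kept probe stood for a gene. The text names every member, and in each related list genes among the 3 largest called rises and falls of a set. AOX1, GLO1, TALDO1 and TKT lie outside that rule and are named to describe what their lists hold. KHK and the chromosome neighbours were chosen after their values were seen. Same-numbered samples deviated together in every pair (correlation 0.32 to 0.38 on the signal arrays and 0.32 to 0.67 in the value table), so the replicate number was also fitted as a block. Other alternatives were the background correction, scaling, filter, trend, probe summary, source and leaving out each array. The members and lists were chosen with earlier results of these data known. The fit was tested on simulated data with noise drawn separately for each array. The shared deviations of same-numbered samples were not part of that test.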

Additional observations from a re-analysis of the deposited data

Results flagged for a closer look

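AKR1C3 (probe ILMN_1713124) is listed because its sorafenib samples moved in opposite directions in the 2 sets, with no overlap between groups in either. The log2 difference, sorafenib minus DMSO, was 0.38 on the signal arrays and -0.45 on the value-table arrays. The difference between the sets was not tested.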

How the results depend on the processing

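The depth limit is the detection level, log2 5.98 to 6.18 on the signal arrays. Of the alternative values of aldo-keto reductase genes and probes on the signal arrays, 117 kept direction and call, 10 lost and 6 gained the call, and 5 reversed; in the value table, 102 kept both, 1 gained the call and 4 reversed. With the value table as the source, 2582 probes were called in place of 4582, with 0 members higher and 2 lower, and the log2 difference was -0.18 for AKR1C2, -0.45 for AKR1C3, -0.048 for AKR1C4 and 0.069 for AKR1D1; among related genes it reversed for ADH6 (-0.088), ALDH4A1 (0.30), HSD17B12 (0.11), ACOX2 (-0.21), SLC27A2 (0.080), EPHX1 (-0.30), HMOX1 (-0.12) and SLC7A11 (0.54). The value table as the source stands for separate arrays, not for another processing of the signals. With the mean of its probes AKR1D1 was at 0.054 on the signal arrays. Median scaling called 2627 probes. The replicate block called 4 members higher and 2 lower on the signal arrays, where it called 6748 of 17115 probes (39.4%, against 26.8% without it), and 5456 probes in place of 3038 in the value table; beyond the calls of AKR1D1, AKR7A3 and AKR1C2 given with their values above, it changed no call of an aldo-keto reductase. Leaving out 1 array gave 2946 (without DMSO replicate 2) to 4338 probes on the signal arrays, with 1 to 2 members lower, and 1560 (without sorafenib replicate 1) to 2494 in the value table, where leaving out sorafenib replicate 2 (1657), DMSO replicate 1 (1676) or DMSO replicate 3 (1929) also moved the count by over 1.5 times; there AKR1C4 ranged from -0.16 to 0.10 and AKR1D1 from -0.15 to 0.28, and AKR1C2 from -0.25 to -0.055. The cause of these changes was not tested.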
